A study of Mus musculus with 9 samples.

Results

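Aire and 7 genes of B cells were followed library by library in RNA-seq of sorted thymic dendritic cells of the mouse. The B cell genes were Ms4a1, Cd79a, Cd79b, Pax5, Ighm, Blnk and Cr2. These 8 genes were taken by symbol from the 55302 gene symbols of the count table, and all 8 passed the filter on low counts that left 15417 genes to test. They were chosen by measured values, since Aire read higher in SIRPa libraries and thymic B cells can express it, so their values in comparisons with SIRPa are given as a description, with no test. The comparison of CD301b with XCR1 was tested.

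The 9 libraries came from C57BL/6 mice 8 weeks old, with 3 libraries for each of 3 sorted populations named SIRPa, CD301b and XCR1. The design text names 3 mice, and no genotype, transgene or treatment is given for any population. SIRPa is a receptor of type 2 conventional dendritic cells, CD301b is a lectin encoded by Mgl2, and XCR1 is a chemokine receptor that marks the type 1 kind. The series title concerns type 2 cytokines, Sirpa+ thymic dendritic cells and clonal deletion. The source name of every sample says thymocytes, while the cell type label says thymic dendritic cells. Neither the gates nor the cell numbers are given in those labels, and whether animals were pooled is not stated either. P-values therefore measure how far these libraries differ, which may be technical.

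AIRE is a transcriptional regulator best known from medullary thymic epithelial cells, where it lets genes of other tissues be transcribed so that developing T cells meet their products. B cells resident in the thymus can also express it, and signals through the receptors RANK and CD40 are known to induce it. The B cell receptor consists of an immunoglobulin, of which Ighm encodes the mu heavy chain, held at the membrane by the signalling chains CD79A and CD79B. BLNK is the adaptor that links this receptor to downstream enzymes, PAX5 is the transcription factor that maintains B cell identity, MS4A1 is the surface protein CD20, and CR2 is the complement receptor CD21 of mature B cells and follicular dendritic cells.

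The label genes separated the populations. Sirpa averaged 773 ± 58.6 CPM (CPM, read counts scaled to library size with TMM factors, mean ± SD, n = 3 throughout) in SIRPa, 645 ± 53.6 CPM in CD301b and 12.5 ± 3.05 CPM in XCR1. Mgl2 averaged 23.2 ± 5.31, 624 ± 58.2 and 1.82 ± 0.508 CPM in SIRPa, CD301b and XCR1, and Xcr1 averaged 9.60 ± 5.18, 0.618 ± 0.402 and 766 ± 96.7 CPM in the same order. The dendritic cell genes Flt3, Zbtb46 and Itgax were present in all 3 populations, at means of at least 99.6 CPM. Library totals lay between 20246092 and 25438864 counts. In XCR1 replicate 3 12 genes of thymocytes and T cells together stood at 505 CPM, against 96.5 and 82.2 CPM in the other XCR1 libraries, and several members stood apart in that library too. Ratios and levels of the members that move by more than 1.5 times without it are also given without it.

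Promoter sequence in RefSeq (GRCm38.p6) was at hand for 5 of the 8 members, namely Aire, Cd79a, Pax5, Blnk and Cr2. The bases before the start site are shown for Aire, Cd79a and Cr2, which hold the E-box motif CAGGTG. Motifs of this type are bound by E proteins such as the product of Tcf3. Blnk holds CAGGTG too, but its window lies in an annotated exon. Capitals mark CAGGTG on either strand and, in Cr2, also the ETS motif GGAAGT, which reads ACTTCC on the printed strand. Each is printed 5′ to 3′ on the gene's strand and ends before the first base annotated as exon.
Aire, chr10:78043611-78043860, minus strand: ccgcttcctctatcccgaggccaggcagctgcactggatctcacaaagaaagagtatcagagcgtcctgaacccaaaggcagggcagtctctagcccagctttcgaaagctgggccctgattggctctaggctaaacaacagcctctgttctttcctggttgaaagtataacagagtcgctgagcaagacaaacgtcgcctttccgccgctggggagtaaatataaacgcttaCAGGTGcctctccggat
Cd79a, chr7:24897247-24897380, plus strand: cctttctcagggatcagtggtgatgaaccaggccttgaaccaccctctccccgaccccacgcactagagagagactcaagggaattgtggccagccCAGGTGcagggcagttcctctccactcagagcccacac
Cr2, chr1:195176720-195176969, minus strand: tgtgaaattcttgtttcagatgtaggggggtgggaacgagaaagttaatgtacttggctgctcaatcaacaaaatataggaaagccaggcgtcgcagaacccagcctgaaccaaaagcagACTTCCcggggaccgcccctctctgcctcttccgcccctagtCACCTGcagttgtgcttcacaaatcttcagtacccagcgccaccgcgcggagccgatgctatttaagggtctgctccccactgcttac

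CAGGTG lay at -17 to -12 from the RefSeq start in Aire, at -154 to -149 in Cd79a and at -88 to -83 in Cr2, where GGAAGT lay at -130 to -125. In Blnk, whose window lies in an annotated exon and is not printed, CAGGTG lay at -160, GGAAGT at -201 and the octamer ATGCAAAT, bound by OCT factors, at -130. In Cd79a a copy of GGAAGT lay at -54, inside an annotated exon. None of the searched motifs, including CCCNNGGG, a core of the site bound by EBF1, was found in the 250 bases before Pax5. On both strands of the 250 bases before the start of 32851 promoters, 17.2% held CAGGTG, 19.7% GGAAGT, 1.60% ATGCAAAT and 11.8% CCCNNGGG. A match is a description of the letters, not a binding site.

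Aire (ENSMUSG00000000731, chr10:78030022-78043610 of GRCm38, minus strand) was at 9.22, 8.78 and 8.95 CPM in the SIRPa libraries, against 1.87, 1.80 and 1.32 CPM in CD301b and 1.74, 1.23 and 2.26 CPM in XCR1. These levels rest on 195, 200 and 190 counts in SIRPa, 47, 43 and 27 in CD301b, and 35, 26 and 47 in XCR1. All 3 SIRPa libraries lay above all the others, and the CD301b and XCR1 libraries overlapped. The mean was 8.98 ± 0.223 CPM in SIRPa, 1.66 ± 0.300 CPM in CD301b and 1.75 ± 0.515 CPM in XCR1, so the ratio of means was 5.40 over CD301b and 5.14 over XCR1. The 3 SIRPa libraries were close to each other for Aire, as they were for Pax5 and Blnk below and were not for Ms4a1 and Cd79a. Fewer cells that express a gene and less of its RNA per cell cannot be told apart in bulk libraries.

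Aire shares 67 of its 3825 exonic bases with Dnmt3l on the opposite strand, and no source used here gives the strand setting of the counting. Dnmt3l itself had 9, 26 and 28 counts in SIRPa, 0, 7 and 0 in CD301b and 0 in every XCR1 library, well under the counts of Aire in each library. In the authors' deposited table of log2 CPM all 8 members were listed, and 51 member values with at least 20 counts differed from those computed here by a median of 0.131, with a range of 0.115 to 0.186 on the log2 scale.

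**Figure D1:**
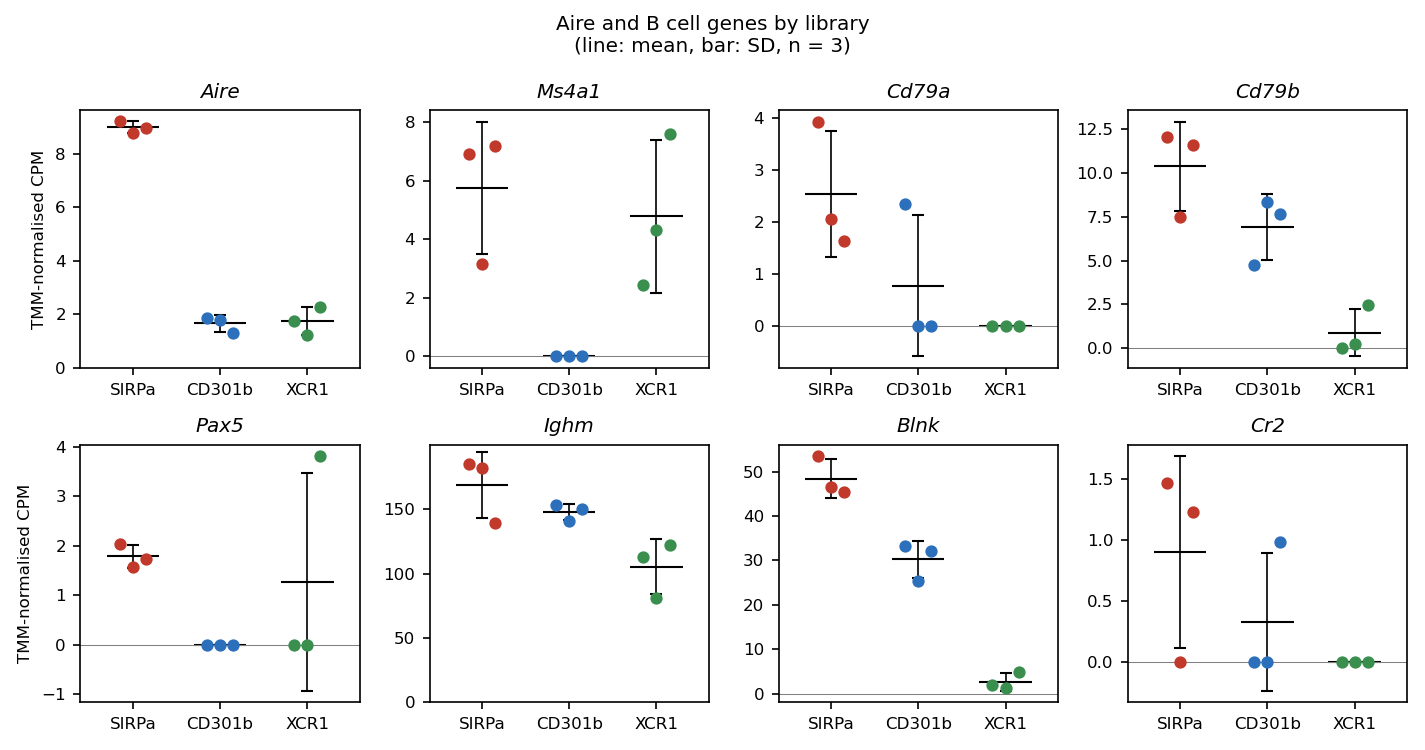
Level of each of the 8 genes in TMM-normalised CPM (vertical axis, a separate linear scale per panel) in the SIRPa, CD301b and XCR1 libraries. Points are libraries, lines the mean and bars the SD over 3 libraries. Aire is tightly grouped at 8.78 to 9.22 CPM in SIRPa and at or under 2.26 CPM elsewhere, while Ms4a1, Cd79a, Cd79b, Pax5 and Cr2 are at 0 in whole populations or single libraries.

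Of the receptor chains, Cd79b (chr11:106311341-106314762) was at 12.1, 7.46 and 11.6 CPM in SIRPa, 4.78, 8.33 and 7.68 CPM in CD301b, and 0, 0.237 and 2.46 CPM in XCR1. The lowest SIRPa library fell within the CD301b range, and every XCR1 library was below every other library. The ratio of means was 1.50 for SIRPa over CD301b and 11.5 for SIRPa over XCR1, or 87.4 without XCR1 replicate 3, where 5 counts remained in XCR1. Cd79a (chr7:24897381-24902197), its partner in the receptor, was found at lower counts. It had 83, 47 and 35 counts in SIRPa, 59, 0 and 0 in CD301b and 0 in every XCR1 library, or 3.92, 2.06 and 1.65 CPM in SIRPa and 2.35 CPM in CD301b replicate 1. SIRPa was thus the population with Cd79a counts in every library. Against the floor of 3 counts over the 3 XCR1 libraries, Cd79a was at least 52.5-fold higher in SIRPa than in XCR1.

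Ighm (chr12:113418558-113422730) encodes the constant part of the mu heavy chain, which membrane and secreted IgM share. It was at 185, 182 and 139 CPM in SIRPa, 153, 141 and 150 CPM in CD301b and 113, 81.1 and 122 CPM in XCR1. SIRPa and CD301b overlapped, and both lay above XCR1. The ratio of means was 1.14 for SIRPa over CD301b and 1.60 for SIRPa over XCR1, a narrower spread over populations than that of either signalling chain.

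Blnk (chr19:40928927-40994535) was at 53.4, 46.6 and 45.3 CPM in SIRPa, 33.2, 25.3 and 32.1 CPM in CD301b and 1.84, 1.14 and 4.87 CPM in XCR1. The 3 populations did not overlap. The ratio of means was 1.60 for SIRPa over CD301b and 18.5 for SIRPa over XCR1, or 32.5 over XCR1 without its replicate 3.

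Pax5 (chr4:44524757-44710487) had 43, 36 and 37 counts in SIRPa, 0 in every CD301b library, and 0, 0 and 79 in XCR1. In SIRPa this was 2.03, 1.58 and 1.74 CPM, and in XCR1 replicate 3 it was 3.81 CPM, the highest level of the 9 libraries. Pax5 was at least 41.3-fold higher in SIRPa than in CD301b, against the floor of 3 counts over the group. The exons of Pax5 overlap the gene models Gm12462 and 5730488B01Rik on the opposite strand, both with 0 counts in all 9 libraries.

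Ms4a1 (chr19:11249675-11266241) had 146, 72 and 153 counts in SIRPa, 0 in every CD301b library, and 49, 91 and 158 in XCR1. Its levels were 6.90, 3.16 and 7.20 CPM in SIRPa and 2.44, 4.32 and 7.61 CPM in XCR1, so these populations overlapped, with a ratio of means of 1.20. Over CD301b the SIRPa level was at least 133-fold higher on the same floor. Ms4a1 was therefore found in XCR1 libraries that had no counts of Cd79a and, in XCR1 replicates 1 and 2, none of Pax5. Cr2 (chr1:195136811-195176716) had the fewest counts of the members, with 31, 0 and 26 counts in SIRPa, 0, 0 and 20 in CD301b and 0 in XCR1. A single CD301b library and a pair of SIRPa libraries held all of its counts.

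In sum over members, SIRPa libraries lay wholly above CD301b libraries for 4 of 8 genes (Aire, Ms4a1, Pax5 and Blnk), where 11.4% of all tested genes did so. They lay wholly above XCR1 libraries for 5 of 8 (Aire, Cd79a, Cd79b, Ighm and Blnk), where 22.1% of tested genes did. No member lay wholly below in either comparison, but the genes were chosen with these contrasts in view and nothing is read from the shares. SIRPa libraries enter both comparisons.

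Per kilobase of annotated exon (RPKM, with gene models of GENCODE M21), the SIRPa order was Ighm at 89.5 ± 13.5, Blnk at 8.09 ± 0.728, Cd79b at 7.24 ± 1.77, Aire at 2.35 ± 0.0584, Cd79a at 1.75 ± 0.832, Ms4a1 at 0.930 ± 0.364, Pax5 at 0.202 ± 0.0259 and Cr2 at 0.111 ± 0.0969 RPKM. Blnk and Cd79b, Aire and Cd79a, and Pax5 and Cr2 were neighbours within their spread. In CD301b the order was Ighm at 78.5 RPKM, Blnk at 5.04, Cd79b at 4.84, Cd79a at 0.537, Aire at 0.435 and Cr2 at 0.0402 RPKM, with Ms4a1 and Pax5 at 0. In XCR1 it was Ighm at 55.9 RPKM, Ms4a1 at 0.774, Cd79b at 0.628, Aire at 0.457, Blnk at 0.437 and Pax5 at 0.143 RPKM, with Cd79a and Cr2 at 0. Without XCR1 replicate 3, XCR1 held 0.546 RPKM of Ms4a1, 0.389 of Aire, 0.249 of Blnk, 0.0829 of Cd79b and 0 of Pax5. After Ighm, the leading gene was not the same in every library of any population. Cd79b was above Blnk in SIRPa replicate 3 and in CD301b replicates 3 and 4. In XCR1, Aire led in replicate 1, Ms4a1 in replicate 2 and Cd79b in replicate 3.

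The genes did not keep one ratio to each other. Per exonic length, Ms4a1 was 0.132, 0.0980 and 0.144 of Cd79b in SIRPa, 0 in CD301b and 0.717 in XCR1 replicate 3. Aire was 0.286, 0.440 and 0.289 of Cd79b in SIRPa, 0.147, 0.0808 and 0.0643 of it in CD301b and 0.345 in XCR1 replicate 3. For the remaining XCR1 libraries this ratio is not given, since Cd79b had 0 and 5 counts there.

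CD301b was set against XCR1 with edgeR's quasi-likelihood test, adjusted by Benjamini-Hochberg over the 15417 genes at a threshold of 0.05. In this comparison 22.6% of all genes passed, 13.5% higher and 9.12% lower in CD301b. The filter on low counts kept Cd79a, Pax5 and Cr2 through their SIRPa counts, and within the 6 libraries of CD301b and XCR1 alone the other 5 members passed it. Of these 5, Ighm and Blnk were higher, Ms4a1 was lower, and Aire and Cd79b did not pass. CD301b libraries lay wholly above XCR1 libraries for Cd79b, Ighm and Blnk, where 19.0% of all genes did, and wholly below for Ms4a1, where 15.4% did.

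Blnk was higher in CD301b than in XCR1 by 3.53 ± 0.39 on the log2 scale (log2 fold change ± SE; edgeR adjusted p = 9.95e-06), at 30.2 ± 4.25 CPM in CD301b and 2.62 ± 1.98 CPM in XCR1. Without XCR1 replicate 3 the Blnk difference was 4.34. Ms4a1 was at least 111-fold lower in CD301b (edgeR adjusted p = 4.06e-06), with 0 counts in CD301b and 298 in XCR1. Both calls held without any single library. Ighm was higher by 0.49 ± 0.14 (edgeR adjusted p = 0.0152), but did not pass without CD301b replicate 1, CD301b replicate 4 or XCR1 replicate 2, with adjusted p of 0.0656, 0.0515 and 0.104.

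The calls of Cd79a and Pax5, tested here only because SIRPa libraries kept them past the filter, each rest on 1 library. Cd79a (edgeR adjusted p = 0.0408) had all of its CD301b counts in replicate 1, and without that library CD301b and XCR1 were both at 0. It also failed to pass without any one SIRPa or XCR1 library (adjusted p 0.0608 to 0.0936), in DESeq2 (0.132) and in limma-voom (0.552). Pax5 (edgeR adjusted p = 0.0300) had its XCR1 counts in replicate 3 alone, with 0 in both populations once it was left out. It also did not pass without any one CD301b library (adjusted p 0.0715 to 0.0799) or in limma-voom (0.467).

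For Cd79b the log2 fold change of CD301b over XCR1 was 2.94 ± 1.03 (edgeR adjusted p = 0.0730). Without XCR1 replicate 3, which held 51 of the 56 XCR1 counts, it was 5.78 (edgeR adjusted p = 7.76e-06). It also passed without XCR1 replicate 1 (edgeR adjusted p = 0.0166) and in limma-voom (0.00649). Aire differed by -0.07 ± 0.53 between CD301b and XCR1 (edgeR adjusted p = 0.956), and Cr2 did not pass (0.169).

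Other B cell surface and receptor signalling genes, from a list of 18 with 16 tested, moved in both directions and are read in the libraries that led to the members, so they are not independent evidence of a direction. In SIRPa over CD301b, 4.28% of all genes passed (2.08% higher and 2.20% lower), and of the list 2 were higher and 14 did not pass, with a median log2 fold change of 0.61 against -0.01 over all genes. Fcer2a, the IgE receptor CD23 of mature B cells, had 104, 17 and 102 counts in SIRPa, 0, 2 and 0 in CD301b and 0, 5 and 10 in XCR1 (edgeR adjusted p = 0.0286 for SIRPa over CD301b). This call was lost without SIRPa replicate 1 or 3 or CD301b replicate 1 or 4 (adjusted p 0.0640 to 0.167). Fcer2a passed the filter on low counts through the SIRPa libraries, where it was high. Cd24a, a surface glycoprotein of many immature cells, was higher in SIRPa by 0.42 ± 0.12 (edgeR adjusted p = 0.0435), a call lost on leaving out any of 7 of the 9 libraries.

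For SIRPa over XCR1, 24.7% of all genes passed (13.9% higher and 10.7% lower), and of the 16 list genes 3 were higher, Cd22 and Cd72 among them, 4 were lower (Cd37, Btk, H2-Ob and Cd24a) and 9 did not pass. The inhibitory receptor Cd22 (edgeR adjusted p = 0.0461) lost its call on leaving out any of 7 libraries. Cd72, a further B cell surface protein, was at 86.2 ± 14.9 CPM in SIRPa, 71.9 ± 6.35 CPM in CD301b and 7.35 ± 0.687 CPM in XCR1, higher in SIRPa by 3.55 (edgeR adjusted p = 2.09e-12). Cd24a was at 77.4 ± 9.11 CPM in SIRPa and 397 ± 29.1 CPM in XCR1, lower by 2.36 ± 0.12 on the log2 scale (edgeR adjusted p = 3.73e-12), and H2-Ob, a modulator of peptide loading on class II, was also lower (edgeR adjusted p = 7.34e-06). Vpreb3 was at 0 in all 9 libraries, and Ralgps2 had the highest mean CPM of the list genes that passed in no comparison.

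In CD301b over XCR1, 1 gene of this list was higher (Cd72, edgeR adjusted p = 5.75e-12), 3 were lower (Cd24a, H2-Ob and Cd37) and 12 did not pass. The Cd37 call was lost without XCR1 replicate 1 (edgeR adjusted p = 0.0871). The summed level of the 18 genes was 342 to 375 CPM in SIRPa, 309 to 333 CPM in CD301b and 603 to 680 CPM in XCR1. Most of the XCR1 sum was Cd24a.

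Of 11 B cell transcription factors, 10 were tested. Bcl11a was the gene that passed in SIRPa over CD301b, at 119.6 ± 11.5 CPM in SIRPa and 203.5 ± 22.7 CPM in CD301b (log2 fold change -0.77 ± 0.13, edgeR adjusted p = 0.00137), a factor that dendritic cells also express. In SIRPa over XCR1, Spib, Bcl11a, Foxo1 and Pou2f2 were higher, Bcl6 was lower and 5 did not pass. Spib, an ETS factor shared by B cells and plasmacytoid dendritic cells, was at 57.5 ± 4.52 CPM in SIRPa, 60.2 ± 11.1 CPM in CD301b and 4.31 ± 0.711 CPM in XCR1 (edgeR adjusted p = 9.08e-12 for SIRPa over XCR1). Pou2f2, the OCT2 factor that binds the octamer, was at 17.7 ± 1.87 CPM in SIRPa, 7.39 ± 1.38 CPM in CD301b and 5.55 ± 3.33 CPM in XCR1 (edgeR adjusted p = 0.00462 for SIRPa over XCR1). Its coactivator gene Pou2af1 had 64, 49 and 107 counts in SIRPa, 0, 3 and 23 in CD301b and 28, 0 and 45 in XCR1, and passed in no comparison. In CD301b over XCR1, Spib, Bcl11a, Foxo1 and Bach2 were higher, Bcl6 was lower and 5 did not pass. Ebf1, the factor that specifies the B lineage, had at most 24 counts in any library and was not tested. Tcf3 was at 87.2 ± 5.57 CPM in SIRPa, 82.5 ± 4.85 CPM in CD301b and 85.3 ± 2.03 CPM in XCR1 and passed in no comparison.

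The kappa chain gene Igkc and the switched heavy chain genes Ighg1, Ighg2b and Ighe spread widely among the SIRPa libraries, while Ighd, the delta chain of naive B cells, did not. Ighd was at 1.99, 2.24 and 1.41 CPM in SIRPa, 1.51, 0.921 and 1.61 CPM in CD301b and 2.14, 4.51 and 6.36 CPM in XCR1, and passed in no comparison. Igkc, the kappa light chain, was at 407, 164 and 58.8 CPM in SIRPa, against 53.8, 19.5 and 28.5 CPM in CD301b and 20.6, 8.69 and 64.1 CPM in XCR1. Every SIRPa library was above every CD301b library, and the lowest SIRPa library was below XCR1 replicate 3. Igkc passed in neither comparison (edgeR adjusted p = 0.303 for SIRPa over CD301b and 0.109 for SIRPa over XCR1). Igha, the alpha heavy chain, was at 122, 98.3 and 57.1 CPM in SIRPa, 38.8, 19.5 and 13.4 CPM in CD301b and 14.7, 3.89 and 23.3 CPM in XCR1. It was higher in SIRPa than in XCR1 by 2.73 ± 0.73 (edgeR adjusted p = 0.0381), a call lost on leaving out any of 6 libraries.

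SIRPa replicate 1 stood apart for Ighg1, Ighe and Ighg2b, and less so for Igha. Ighg1 had 2279, 41 and 46 counts in SIRPa, 0 in CD301b and 0, 0 and 2 in XCR1. Ighe had 533, 2 and 41 counts in SIRPa, 11, 7 and 1 in CD301b and 0, 0 and 4 in XCR1. Ighg2b had 2174, 502 and 216 counts in SIRPa, 21, 35 and 3 in CD301b and 100, 6 and 135 in XCR1. Ighg1, Ighe and Ighg2b were thus highest in SIRPa replicate 1, the library that for Aire differed little from its fellows. Of the 9 constant genes tested, 2 were higher in SIRPa over CD301b and 7 did not pass, and 2 were higher in SIRPa over XCR1 and 7 did not pass. In SIRPa over CD301b these were Iglc1 (at least 150.3-fold, edgeR adjusted p = 0.00685) and Iglc3 (at least 101.6-fold, edgeR adjusted p = 0.00797). Both are lambda light chains with near-identical copies whose reads could be split by the counting. Iglc1 and Iglc3 passed the filter on low counts through the SIRPa libraries, where they were high, so their calls are not independent evidence. Iglc3 lost its call in both comparisons without SIRPa replicate 3 (adjusted p 0.252 and 0.300). In CD301b over XCR1, Iglc1 was lower (edgeR adjusted p = 0.0208), a call lost without any one CD301b library or XCR1 replicate 2 and in limma-voom, and 8 did not pass. Iglc1 had 0 counts in CD301b and 0, 20 and 18 in XCR1, and was kept past the filter by 15, 303 and 116 counts in SIRPa.

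**Figure D2:**
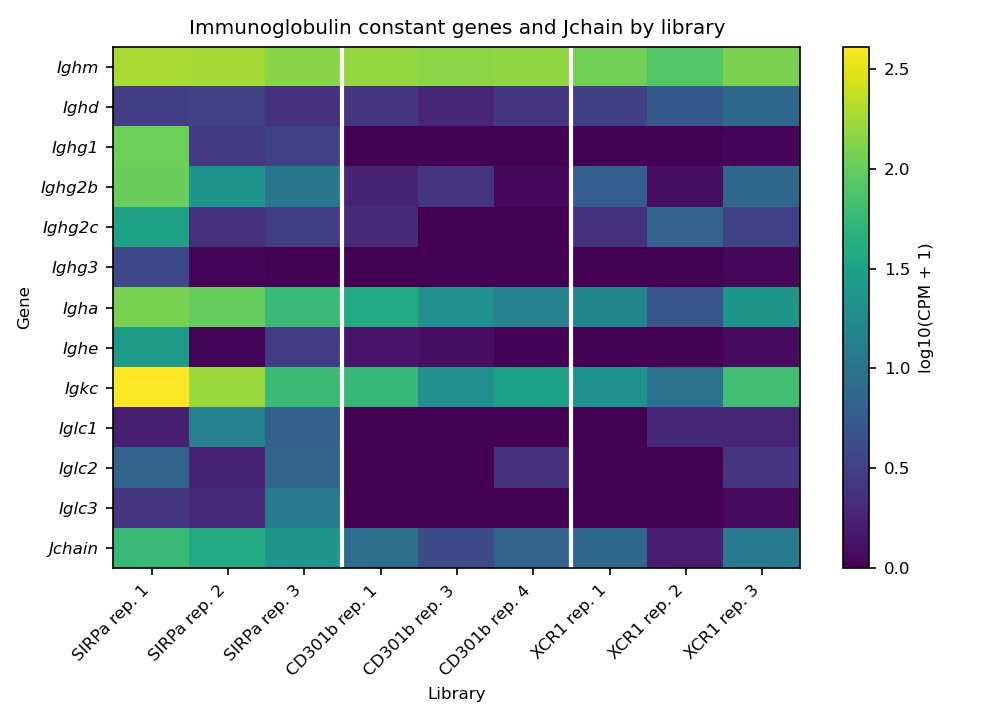
Heat map of immunoglobulin constant genes and Jchain (rows) by library (columns, SIRPa, CD301b, XCR1), coloured by log10 of TMM-normalised CPM plus 1. Ighm lies between 81.1 and 185 CPM in all 9 libraries, whereas Ighg1 is at 108 CPM in SIRPa replicate 1 and at or below 2.17 CPM in every other library.

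Summed over 183 heavy chain variable segments, the SIRPa libraries held 86.1, 52.0 and 35.8 CPM, against 5.25, 6.03 and 10.7 CPM in CD301b and 3.84, 3.18 and 16.5 CPM in XCR1. The number of heavy segments with a count was 25, 16 and 14 in SIRPa, 5, 4 and 3 in CD301b and 5, 3 and 13 in XCR1. For 160 kappa variable segments, the sums were 113, 57.8 and 25.9 CPM in SIRPa, 8.87, 7.58 and 13.2 CPM in CD301b and 3.39, 3.28 and 22.3 CPM in XCR1. SIRPa libraries thus held more heavy and kappa segment reads than any CD301b or XCR1 library. The number of kappa segments with a count was 30, 18 and 17 in SIRPa, 8, 4 and 3 in CD301b and 3, 2 and 22 in XCR1. XCR1 replicate 3 was the nearest to SIRPa, and with 22 kappa segments it held more than SIRPa replicates 2 and 3. The leading heavy segment held 24.7 to 28.0% of segment counts in SIRPa, 40.3 to 89.5% in CD301b and 27.4 to 53.3% in XCR1. These segment sums were not tested, and segments are near-identical copies between which reads may be divided.

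**Figure D3:**
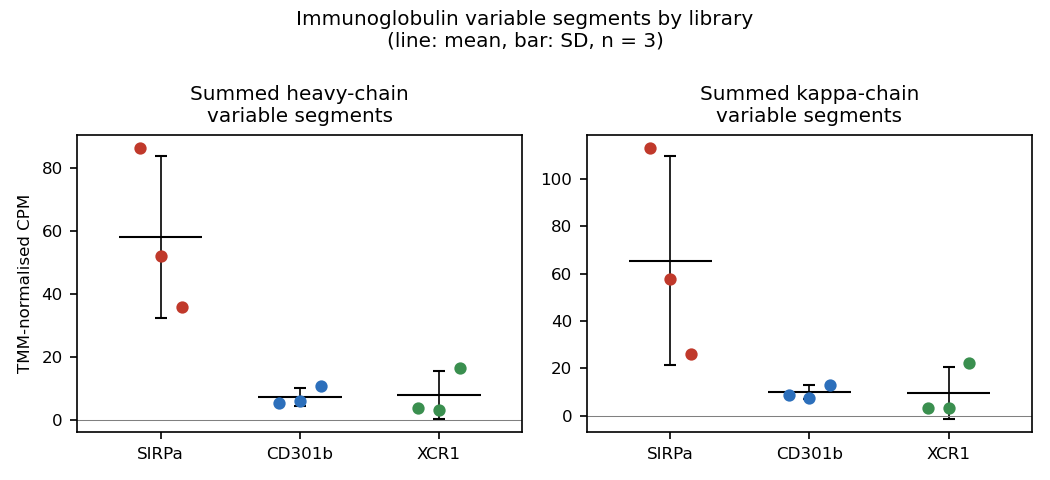
Summed heavy chain and kappa variable segments in TMM-normalised CPM by population, each panel on its own linear axis. Points are libraries, lines means and bars SD over 3 libraries. The SIRPa libraries spread from 35.8 to 86.1 CPM for heavy segments, and 1 XCR1 library, at 16.5 CPM, lies apart from the other two.

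Plasma cell genes, 6 of 8 tested, held 1 gene that passed, Prdm1, higher in SIRPa over XCR1 and in CD301b over XCR1. In SIRPa over CD301b edgeR called 0 of them, with 2 at an unadjusted p under 0.05, while DESeq2 called 2 and limma-voom 1. Jchain, which joins polymeric IgA and IgM, was at 57.0, 37.9 and 22.2 CPM in SIRPa, 8.04, 3.02 and 5.72 CPM in CD301b and 6.53, 0.570 and 10.9 CPM in XCR1. Its SIRPa libraries lay above all others, yet it did not pass (edgeR adjusted p = 0.221 over CD301b and 0.0847 over XCR1). Mzb1, a chaperone of antibody secretion, had 26, 37 and 20 counts in SIRPa, 0 in CD301b and 0, 6 and 0 in XCR1, and also did not pass.

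Of 8 genes of activated thymic B cells, Fas and Cd80 were higher in SIRPa over CD301b, by 1.18 ± 0.30 (edgeR adjusted p = 0.0241) and 0.70 ± 0.19 (0.0425), and 6 did not pass. Each call was lost on leaving out any of 5 libraries. Over XCR1, Fas, Tnfrsf13b, Cd69 and Zbtb32 were higher, Cd86 was lower and 3 did not pass. In CD301b over XCR1, Tnfrsf13b, Cd69 and Zbtb32 were higher, Cd86 was lower and 4 did not pass. Dendritic cells also express Cd80, Cd86 and Fas.

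The RANK and CD40 route that induces Aire elsewhere was measured with 13 genes. In SIRPa over CD301b, 2 were higher and 11 did not pass. Tnfrsf11a, which encodes RANK, was at 105, 90.1 and 88.3 CPM in SIRPa, 61.4, 49.7 and 66.5 CPM in CD301b and 71.6, 60.4 and 44.6 CPM in XCR1, and the SIRPa libraries lay above all others. The log2 fold change was 0.68 ± 0.16 over CD301b (edgeR adjusted p = 0.0189) and 0.68 ± 0.16 over XCR1 (edgeR adjusted p = 0.00353). The call over CD301b was lost without SIRPa replicate 1 or CD301b replicate 3 (adjusted p 0.111 and 0.116). Tnfrsf11b, the decoy receptor osteoprotegerin that binds the RANK ligand, was at 4.21, 1.54 and 2.73 CPM in SIRPa, 0 in CD301b and 1.79, 0.285 and 1.69 CPM in XCR1. It was at least 65.4-fold higher in SIRPa than in CD301b (edgeR adjusted p = 0.00514), but passed the filter on low counts through the SIRPa libraries, where it was high.

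Over XCR1, Tnfrsf11a, Relb, Traf2 and Traf6 were higher, Chuk was lower and 8 did not pass. Relb, the NF-kappaB subunit of the non-canonical route, was at 254, 217 and 231 CPM in SIRPa, 183, 194 and 202 CPM in CD301b and 153, 178 and 130 CPM in XCR1. Its log2 fold change over XCR1 was 0.60 ± 0.12 (edgeR adjusted p = 0.000515). The Traf2 and Traf6 calls, of adaptors below these receptors, were each lost on leaving out any of 5 libraries. In CD301b over XCR1, Relb was higher, Chuk and Tnfrsf11b were lower and 10 did not pass. Tnfrsf11b was kept past the filter through SIRPa libraries, and the Relb call was lost on leaving out any of 8 libraries. Cd40 was at 119.1 ± 8.63 CPM in SIRPa, 126 ± 6.96 CPM in CD301b and 125 ± 9.36 CPM in XCR1, and Nfkb2 at 279.8 ± 23.3, 269 ± 8.45 and 263 ± 28.8 CPM. Neither passed in any comparison.

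**Figure D4:**
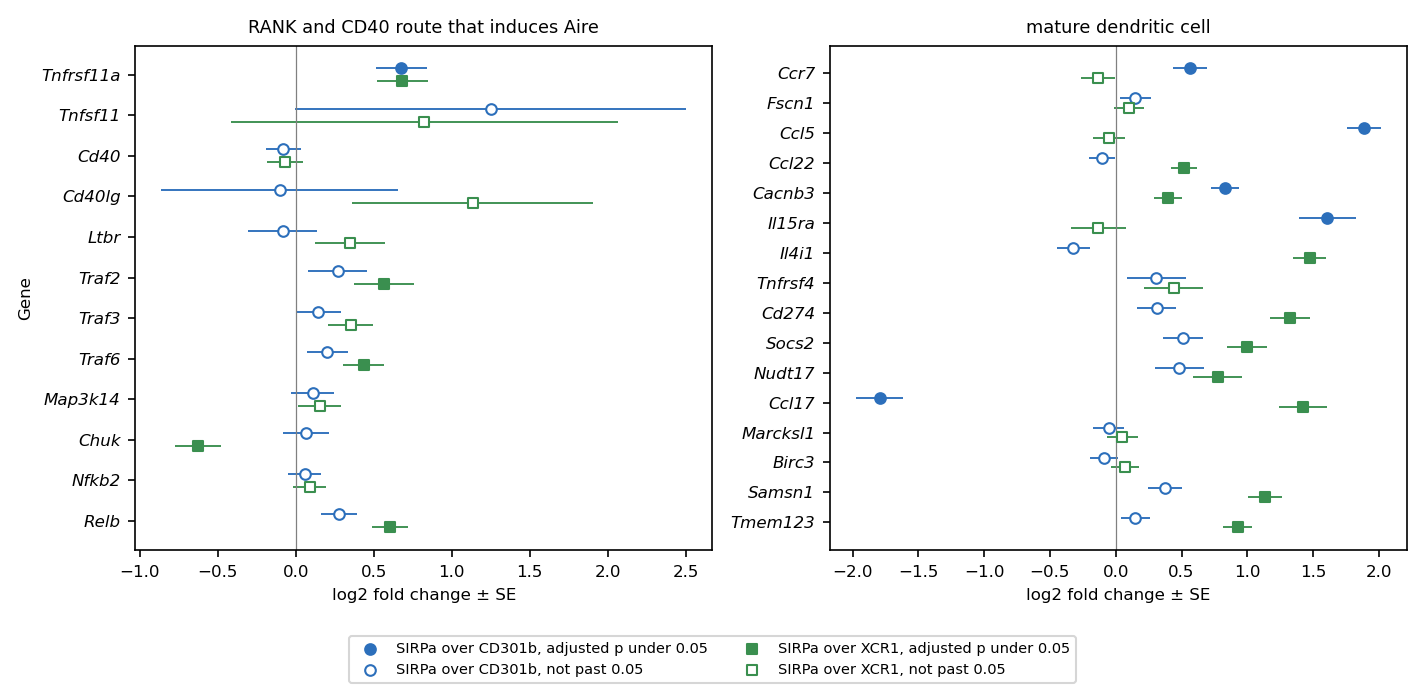
Log2 fold changes with SE from the edgeR fit for RANK and CD40 route genes and mature dendritic cell genes, SIRPa over CD301b and SIRPa over XCR1. Filled points have an adjusted p under 0.05, and positive values are higher in SIRPa. Tnfrsf11b is not drawn because CD301b has no counts of it. Tnfrsf11a is at 0.68 in both comparisons.

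Of 17 protein partners of AIRE, 16 were tested. In SIRPa over CD301b edgeR, DESeq2 and limma-voom each called 0, with 1 at an unadjusted p under 0.05 in edgeR. In SIRPa over XCR1, where 24.7% of all genes passed, Prkdc was higher, the topoisomerase genes Top1, Top2a and Top2b were lower and 12 did not pass. In CD301b over XCR1, where 22.6% of all genes passed, 1 was higher, the same 3 topoisomerase genes were lower and 12 did not pass. Among 13 antigens that depend on AIRE in the epithelium, such as Ins2, Fabp2 and Spink1, which were at 0 throughout, 1 (Csn2) had enough counts to be tested, and it did not pass (edgeR adjusted p = 0.888 over CD301b and 0.883 over XCR1). The 13 genes summed to 2.74, 1.67 and 1.84 CPM in SIRPa, 1.15, 0.419 and 0.587 CPM in CD301b and 2.19, 2.14 and 2.26 CPM in XCR1. Every SIRPa sum lay above every CD301b sum, and the SIRPa sums overlapped those of XCR1. The sums rest on few counts, and AIRE activity was not tested.

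Markers of other cells that could hold Aire or B cell genes were read beside these values. Thymic epithelial genes, not all of them particular to the medulla, summed to 29.7, 31.9 and 29.6 CPM in SIRPa. The sums were 41.5, 37.1 and 32.4 CPM in CD301b and 7.08, 17.0 and 6.22 CPM in XCR1. All 3 SIRPa sums lay below the CD301b sums, an order carried by Ehf, an epithelial transcription factor gene. Ehf was at 11.9, 13.0 and 15.3 CPM in SIRPa, 25.9, 22.8 and 25.8 CPM in CD301b and 2.39, 2.75 and 1.30 CPM in XCR1. Other genes of the list went either way between SIRPa and CD301b. Trp63 had 16, 21 and 37 counts in SIRPa, 12, 6 and 0 in CD301b and 2, 0 and 0 in XCR1. Its SIRPa libraries lay above all others. Krt14 had 18, 0 and 3 counts in SIRPa and 38, 33 and 5 in CD301b. The keratin gene Krt8 was at 7.09, 13.3 and 6.45 CPM in SIRPa and 8.63, 2.56 and 1.32 CPM in CD301b. For this list edgeR called 0 of 8 tested genes in SIRPa over CD301b, with 1 at an unadjusted p under 0.05, while DESeq2 and limma-voom each called 1 lower. Ccl21a and Cldn3 were at 0 in all 9 libraries, and Foxn1 was at 0.236, 0.658 and 0.565 CPM in SIRPa, 0, 0.0419 and 0 CPM in CD301b and 0, 0 and 0.482 CPM in XCR1. Their part in the Aire values was not tested.

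Thymocyte and T cell genes summed to 484, 436 and 566 CPM in SIRPa, 327, 430 and 546 CPM in CD301b and 96.5, 82.2 and 505 CPM in XCR1, and in SIRPa over CD301b edgeR called 0 of 11, with 0 at an unadjusted p under 0.05, DESeq2 0 and limma-voom 1. Macrophage genes summed to 3170, 2731 and 2942 CPM in SIRPa, 1999, 1822 and 1748 CPM in CD301b and 207, 189 and 199 CPM in XCR1. Plasmacytoid dendritic cells are also known to express Spib, Bcl11a and Blnk, and their 11 genes summed to 602, 612 and 575 CPM in SIRPa, 696, 605 and 765 CPM in CD301b and 112, 114 and 148 CPM in XCR1. Like Blnk, Cd79b and Spib, these sums were higher in SIRPa and CD301b than in XCR1. The sums of macrophage, thymic epithelial and mature dendritic cell genes had this order too. The part of any of these cells in the member values was not tested.

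Mature dendritic cell genes, 16 tested, held 4 higher (Ccl5, Il15ra, Cacnb3 and Ccr7), 1 lower (Ccl17) and 11 that did not pass in SIRPa over CD301b. Ccl5, a chemokine, was at 258 ± 12.0 CPM in SIRPa, 69.7 ± 13.5 CPM in CD301b and 267 ± 12.7 CPM in XCR1, higher in SIRPa than in CD301b by 1.89 ± 0.13 (edgeR adjusted p = 1.23e-08). The call of Ccr7, the receptor that guides mature dendritic cells (edgeR adjusted p = 0.0132), was lost without SIRPa replicate 1 (0.0792). Over XCR1, 9 were higher and 7 did not pass. The 16 genes summed to 6278, 5883 and 6118 CPM in SIRPa, 5921, 5532 and 5280 CPM in CD301b and 4082, 4893 and 3822 CPM in XCR1.

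Likeness of pattern was measured as Pearson's r of log2 CPM over the 9 libraries among 11370 genes with a mean of at least 1 CPM. Predicted gene models and the variable, diversity and joining segments of antigen receptors, immunoglobulin segments among them, were left out of this ranking. The genes nearest to Aire were Kcna2 (r = 0.967), Pdzd8 (0.966), Vav2 (0.964), Gbp8 (0.962), Ankrd35 (0.957) and Dnajc14 (0.953). Kcna2, a potassium channel gene, was at 29.3, 27.0 and 24.2 CPM in SIRPa, 9.19, 10.3 and 11.9 CPM in CD301b and 10.1, 8.64 and 11.6 CPM in XCR1. The nearest member to Aire was Cd79a (r = 0.80), at rank 218, followed by Pax5 (0.78) at rank 263, and Tnfrsf11a (0.77) was at rank 286. Ms4a1 (0.55) and Cd79b (0.54) were further away, at ranks 1523 and 1576. The points share their libraries and scaling, and populations with distinct means enter each r.

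The genes nearest to Ms4a1 were Nck2 (r = 0.979), Ccl5 (0.969), Pglyrp1 (0.960), Sspo (0.960), Il15ra (0.957) and Cntn1 (0.956). Ccl5 and Il15ra are from the mature dendritic cell list. Among members Ms4a1 was nearest to Pax5 (0.72), while with Cd79b and Blnk its r was -0.23 and -0.29. The genes nearest to Cd79a were Dnajc1 (r = 0.986), Swap70 (0.976), Ttf1 (0.961), Golt1b (0.954), Cd38 (0.940) and Enpp4 (0.938), a pattern in which CD301b replicate 1 was near the SIRPa libraries. Among member pairs r was highest for Cd79b and Blnk (0.93) and for Ighm and Blnk (0.91).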

How the data were processed

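Per the labels' protocols, thymi were digested with collagenase D, cells were sorted on a FACS Aria II, and libraries were made with a Clontech stranded total RNA kit. Per the submitters' processing notes, the tools were FastQC and Trimmomatic, HISAT2 with mm10, SAMtools, Subread's featureCounts and edgeR. Their versions, gene annotation and strand setting were not found there. The deposited table holds raw counts per gene symbol. A second deposited table by the authors holds log2 CPM values of 22066 genes and was used for a check of levels alone.

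From the counts, 24 symbols turned into dates (0.125 to 0.187% of counts) were left out of library sizes. Genes were kept with filterByExpr (minimum count 10), leaving 15417. With TMM-scaled library sizes, edgeR 4.0.16 (R 4.3.3) ran its quasi-likelihood test with robust estimation in 1 fit over 9 libraries, two-sided, with the populations as groups. Benjamini-Hochberg adjustment ran over all genes tested, at a threshold of 0.05. A group at 0 was set against a floor of 3 counts over the group for folds given as "at least", and 3 counts in 1 library equal 0.119 to 0.150 CPM. Floors cover counting error only. RPKM used union exon lengths of GENCODE M21 (GRCm38, the build of mm10), which holds all 8 members. Motifs were searched in RefSeq promoters (GRCm38.p6). The fit was tested on simulated data.

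The members and the gene lists were chosen with earlier results of these data known. The text names the 8 members in every library, and from each list up to 3 called genes per comparison with the smallest adjusted p and the most abundant gene called in none. Other list genes, such as Cd22, Pou2f2, Jchain, Mzb1, Ighg1, Ighg2b, Ighe, Ccr7 and Cd40, were named after their values were seen. Some list genes are counted in the lists but not reported by name here. Alternatives were DESeq2's size factors, no filter on low counts, DESeq2 1.42.0, limma-voom (limma 3.58.1), a fit of the 6 libraries compared, the replicate number as a block, and each library left out.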

Additional observations from a re-analysis of the deposited data

How the results depend on the processing

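The calls that changed are given for counts of genes past the threshold. In SIRPa over CD301b, 660 genes passed, 992 in DESeq2, 997 in limma-voom, and 328 to 813 with 1 library left out, lowest without SIRPa replicate 1. Leaving out 1 library gave 3015 to 4042 genes in SIRPa over XCR1, against 3803, and 2921 to 3249 in CD301b over XCR1, against 3487.

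Of the members, 5 of 8 tested passed in CD301b over XCR1, where 22.6% of all genes did. These 5 include Cd79a and Pax5, kept past the filter by SIRPa libraries and each resting on 1 library. In DESeq2 3 members passed, and in the fit of 6 libraries 3 of the 5 still tested. With the replicate block 2 passed (where the edgeR adjusted p of Ighm was 0.0902). With 1 library left out 2 to 5 passed, with 2 without CD301b replicate 1 and 3 without CD301b replicate 4 or XCR1 replicate 2. Blnk and Ms4a1 kept their calls in every alternative tried. DESeq2 gave no adjusted p for Pax5 there.

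For B cell surface genes in SIRPa over CD301b, 2 passed, against 4 with no filter, 4 in DESeq2, 4 in limma-voom, 4 in the fit of 6 libraries, 1 with the replicate block and 0 to 2 with 1 library left out. The main calls were both higher, while the call with the replicate block was lower, as was 1 of those without CD301b replicate 4. With the replicate block H2-Ob lost its call in CD301b over XCR1. For transcription factors in SIRPa over CD301b, 1 passed, against 3 with no filter, 3 in limma-voom, 2 in the fit of 6 libraries, 2 with the replicate block and 1 to 2 with 1 library left out. In SIRPa over XCR1 the factors numbered 5, and 5 to 8 with 1 library left out, the 8 being without XCR1 replicate 3. For immunoglobulin constant genes, 2 passed in SIRPa over CD301b, against 1 in limma-voom, 4 with the replicate block and 1 to 3 with 1 library left out. In SIRPa over XCR1, 2 passed, against 5 in DESeq2, 1 in the fit of 6 libraries, 4 with the replicate block and 0 to 3 with 1 library left out. In CD301b over XCR1, 1 passed, against 2 in DESeq2, 0 in limma-voom, 0 of the 5 still tested in the fit of 6 libraries and 0 to 1 with 1 library left out. The cause of these shifts was not tested.

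The labels give replicate numbers, but same-numbered libraries deviated together with r of only 0.00305 to 0.0413, so the numbers were not taken to pair the libraries. With the replicate block, 660 genes passed in SIRPa over CD301b, 4034 in SIRPa over XCR1 and 2913 in CD301b over XCR1. DESeq2's size factors differed from TMM by at most 0.0221 on the log2 scale. Depth limits Cd79a, Pax5 and Cr2, which had at most 83, 79 and 31 counts in any library. Differences of that size rest on few reads, and a count of 0 there means not detected at this depth, not absent.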
